A study of Mus musculus with 27 samples.

Results

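The respiratory chain genes were taken by gene symbol. A gene was a member if its symbol began with Nduf, Uqcr, Cox4, Cox5, Cox6, Cox7, Cox8 or Atp5, or if it was Sdha, Sdhb, Sdhc, Sdhd or Cycs. This gave 91 of the 18194 genes that had a probe set assigned to a single gene symbol. By known role, 42 belonged to complex I, 4 to complex II, 8 to complex III, 1 was the electron carrier cytochrome c, 19 belonged to complex IV and 17 to complex V. The symbol rule also took in 8 complex I assembly factors (Ndufaf1 to Ndufaf8), which help build the complex and do not stay in it, so not all members are subunits. Of the complex IV genes, 8 are isoforms or close relatives whose expression is known mainly from particular tissues such as muscle or testis. The levels of 8 members lay under a mean of 6 log2 units, near the floor of the arrays, where differences are compressed: 2 belonged to complex I and 6 to complex IV.

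Messenger RNA had been measured on 27 Affymetrix arrays from BALB/c mice, in 9 sorted T cell groups of 3 arrays each. From the thymus came Treg precursor cells, which the series title gives as Foxp3GFP- CD25+ CD4 single-positive cells. Thymic Foxp3+GFP+ and Foxp3-GFP- cells were each sorted by their CD24 level into high (CD24hi), intermediate (CD24int) and low (CD24lo) fractions. From lymph node (LN) came peripheral Tregs and naive T cells. CD24 is a surface protein that falls as thymocytes mature, and the design sets Foxp3+ cells, the regulatory T cells (Tregs), against Foxp3- conventional cells of the same maturity. The labels of the Foxp3- CD24 groups also carry the word Treg. They do not give the CD24 level at which the precursors were sorted, the age or sex of the mice, the construct behind the GFP, or whether replicates came from separate or pooled animals. P-values therefore measure the spread between these arrays only.

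The mitochondrial respiratory chain passes electrons from NADH (complex I, NADH dehydrogenase) and succinate (complex II, succinate dehydrogenase) through complex III and cytochrome c to oxygen at complex IV (cytochrome c oxidase). The proton gradient built on the way drives complex V, the ATP synthase. Most subunits are encoded in the nucleus, as all members here are, while a core set is encoded in mitochondrial DNA and is not described here. In T cells, oxidative metabolism is known to differ between resting, activated and regulatory cells, and cytochrome c also takes part in apoptosis.

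Promoter sequences are shown for 3 members on which the comparison of Foxp3+ with Foxp3- cells turned: Ndufaf4 and Sdhb, which were lower in Foxp3+ CD24hi cells, and Cox6b2, which was higher in Tregs than in conventional cells in 3 of 4 comparisons. Each runs 5′ to 3′ from 250 bases before the RefSeq gene start to 20 bases after it (build GRCm38.p6), on the strand of the gene. Capitals mark core letters of the motifs of NRF1 (GCATGCGC) and of ETS factors such as GABP (CCGGAAG), which are known regulators of nuclear genes for mitochondrial proteins. A core of YY1 (ATGGCGGC) was searched too, and has no match in these windows. All were searched on both strands.
Ndufaf4, chr4:24897833-24898102, plus strand: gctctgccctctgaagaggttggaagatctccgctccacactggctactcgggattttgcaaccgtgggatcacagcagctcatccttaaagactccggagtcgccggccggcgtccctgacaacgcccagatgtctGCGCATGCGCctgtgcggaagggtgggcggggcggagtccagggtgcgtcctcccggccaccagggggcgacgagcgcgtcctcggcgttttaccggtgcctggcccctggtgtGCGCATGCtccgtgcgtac
Sdhb, chr4:140961021-140961290, plus strand: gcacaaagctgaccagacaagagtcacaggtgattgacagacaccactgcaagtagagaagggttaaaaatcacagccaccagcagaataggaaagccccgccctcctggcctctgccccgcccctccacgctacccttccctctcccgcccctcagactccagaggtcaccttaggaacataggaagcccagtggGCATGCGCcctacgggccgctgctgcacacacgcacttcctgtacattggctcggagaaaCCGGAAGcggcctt
Cox6b2, chr7:4753075-4753344, minus strand: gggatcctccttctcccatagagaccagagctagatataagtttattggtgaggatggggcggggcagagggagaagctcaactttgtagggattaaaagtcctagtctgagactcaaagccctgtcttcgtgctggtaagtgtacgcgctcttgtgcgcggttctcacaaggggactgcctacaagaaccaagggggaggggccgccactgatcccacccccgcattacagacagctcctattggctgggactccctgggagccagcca

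The Ndufaf4 window holds 3 matches to the NRF1 core, of which the pair that begins 113 and 111 bases before the start overlaps on opposite strands. The Sdhb window holds an NRF1 core that begins 54 bases before the start and an ETS core that begins at base 7 after it, and the Cox6b2 window holds 0 matches. RefSeq windows, here of 250 bases before to 50 bases after the start, were found for 75 of the 91 members. The NRF1 core occurred in 12 of these 75 (16%), against 3.05% of the 27025 gene symbols with a window. A gene counted if any of its windows held the core. The ETS core occurred in 19 members (25.3%) against 9.93% of these symbols, and the YY1 core in 6 (8%) against 2.6%. A match is a description of the letters and does not show that a factor binds there.

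Sort genes followed the labels: Foxp3 had group means of 9.90 to 10.07 log2 units in the 4 Foxp3+ groups and 3.80 to 4.17 in the others, and Il2ra (CD25) stood at 8.16 in precursors. Cd24a had means of 10.34 and 10.93 in the Foxp3+ and Foxp3- CD24hi groups and of 7.63 and 6.00 in the CD24lo groups. In precursors the Cd24a mean was 11.74, the highest of all groups and above both CD24hi groups. T cell markers were high on every array, at mean levels of 10.8 to 11.3 log2 units. Markers of other cells moved with some groups. The 7 measured markers of CD4 CD8 double-positive thymocytes had a mean log2 level of 6.81 to 7.82 on precursor arrays, 6.24 to 6.43 in Foxp3- CD24hi and 4.60 to 5.61 in the other 7 groups. The 5 markers of NK, NKT and innate-like T cells reached 9.40 to 9.48 in Foxp3- CD24lo cells, against 4.05 to 7.24 elsewhere. In sorted bulk samples, fewer cells of a type and less RNA per cell cannot be told apart. Liver genes stood at 10.2 on the array of Foxp3- CD24hi replicate 3 and at 4.25 to 4.73 on the other arrays.

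All differences below are log2 values, the group named before minus the group named after, with the standard error (SE) of a limma fit to all 27 arrays and 3 arrays per group. Members rose or fell where the Benjamini-Hochberg adjusted p over 18194 genes was under 0.05. Each count of members called in this fit is set beside the share of all genes called in that direction. Counts from fits with an array left out or with another setting, apart from the replicate block, are given without such a share. Of the 91 members, 23 were called in at least 1 of 16 comparisons, 15 in more than 1 and 68 in none.

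Most respiratory chain genes gave signals above the floor of the arrays, and their group means differed little. Among the 83 members at or above 6 log2 units, the difference between the highest and the lowest group mean had a median of 0.47 log2 units, against 0.64 for all 8706 genes at or above that level. This range was over 1 log2 unit for 3 members (3.61%) and for 24.8% of those genes. The standard deviation between arrays of a group was larger for the members, with a median of 0.22 against 0.17 for those genes. The brightest members were Ndufa1 for complex I (mean over all arrays 11.95 log2 units), Sdhb for complex II (10.62), Uqcrb for complex III (12.58), Cox6a1 for complex IV (13.17) and Atp5g3, a gene of the c-ring that turns in the membrane, for complex V (12.53). Intensities of different probe sets are not comparable as amounts, so these give the brightest probe set and no order of abundance.

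The groups at the ends of this small range were the same for many members. Treg precursors had the highest group mean for 42 of the 83 members (50.6%), against 16.2% of the 8706 genes and 21.1% of the 1377 genes with a mean of at least 10 log2 units. Foxp3+ CD24hi cells had the lowest group mean for 36 (43.4%), against 16.6% and 16.5%. LN naive cells were lowest for 21 members (25.3%), against 14.7% and 14.4% of these sets of genes. Foxp3- CD24lo cells were highest for 18 (21.7%), against 14.7% and 12.5%. Members share arrays, so these counts describe the 27 arrays and have no test.

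**Figure D1:**
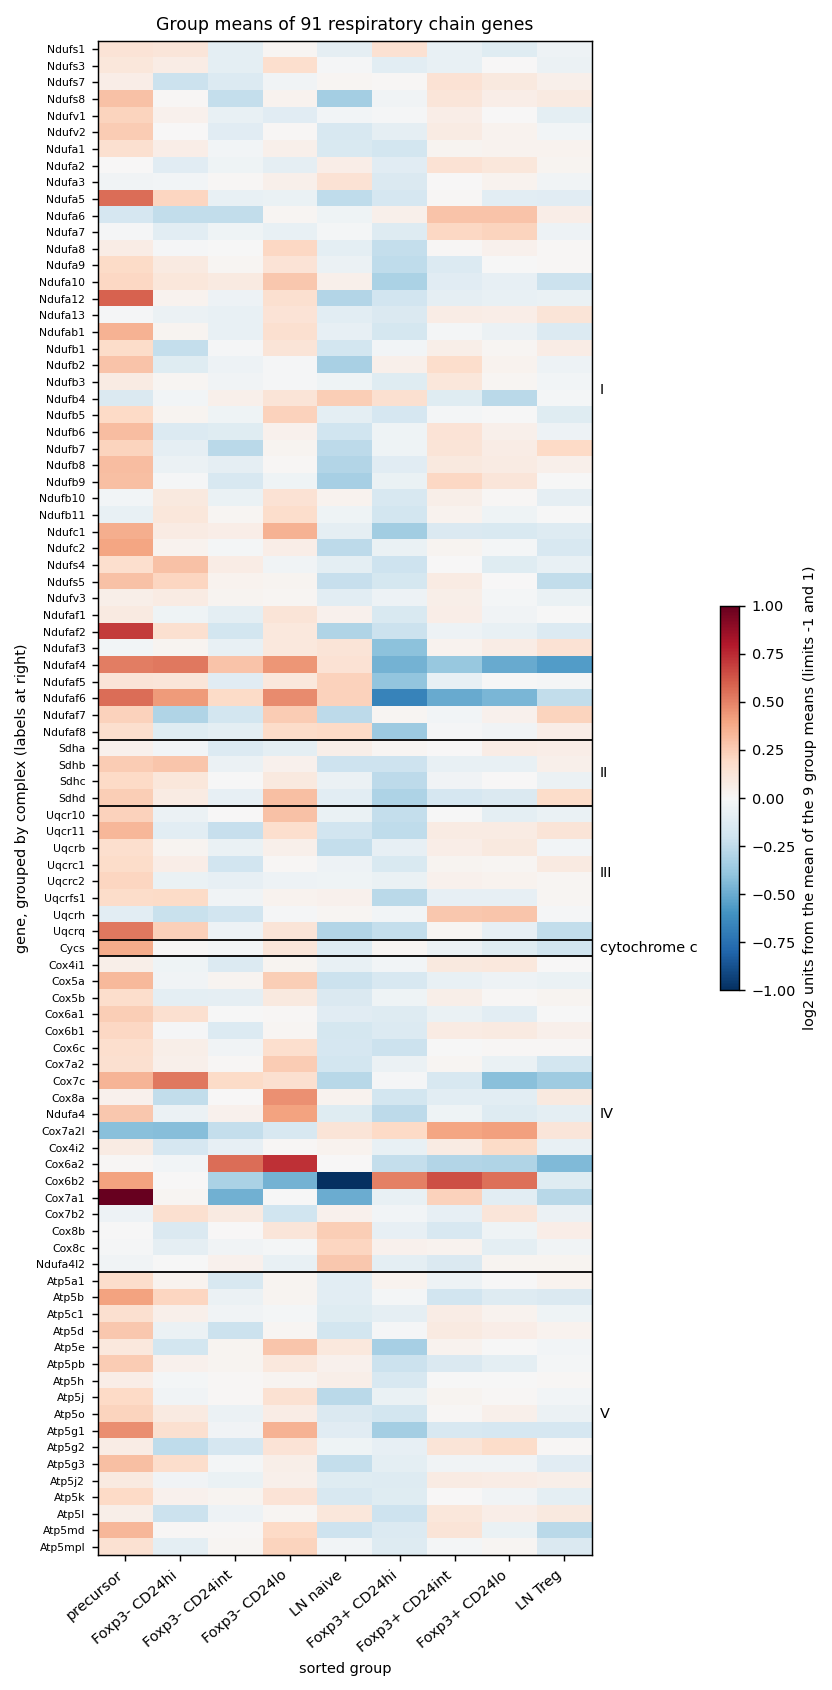
Group means of the 91 members (rows, by complex) in the 9 sorted groups (columns), as log2 units from the mean of the 9 group means; red is higher, blue lower and the colour limits are -1 and 1. The precursor column is the reddest and the Foxp3+ CD24hi column blue for most rows, and Ndufaf4 and Ndufaf6 are red in conventional cells and blue in the 4 Foxp3+ groups.

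The members also moved together between replicates of a group. On each array the deviation of every member from its mean over all arrays was taken, and the median of the 91 deviations gave 1 value per array. In precursors this was -0.10, 0.25 and 0.35 log2 units for replicates 1, 2 and 3, in Foxp3- CD24hi cells -0.24, 0.07 and 0.18, and in Foxp3+ CD24hi cells -0.28, -0.19 and 0.06. Foxp3+ CD24hi arrays thus overlapped with the precursor arrays across replicate numbers and lay below the precursor array of the same number in each case. Taken against its own group, replicate 1 was below the group mean in 9 of 9 groups (median over groups -0.18), and replicate 3 above it in 9 of 9 (0.17). The 22 measured cell cycle genes went the other way, with replicate 1 above its group mean in 9 of 9 groups (median 0.56). The replicate number is the leading digit of the sample codes, and no label says what it marks. Fits with the replicate number as a block took this shared shift out of the spread within groups. Each group has 1 array of each number, so the block left the differences unchanged and altered only their SE and p. These fits are given below mainly where same-numbered arrays deviated together, and it is said where they did not.

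**Figure D2:**
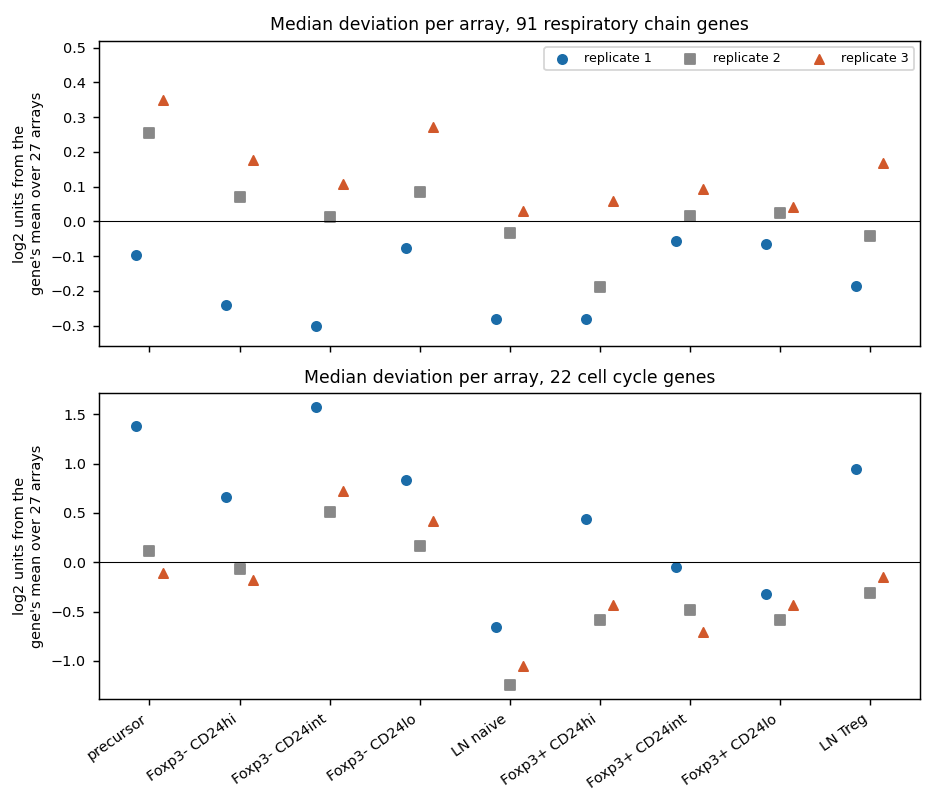
Median deviation per array, in log2 units from each gene's mean over 27 arrays, of the 91 members (upper panel) and 22 cell cycle genes (lower panel) for each replicate of the 9 groups. Replicate 1 is the lowest of its group for the members and the highest for the cell cycle genes in every group.

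The comparison of Foxp3+ CD24hi cells with precursors asks how the immature Foxp3+ cell differs from the CD25+ cell without Foxp3. It moved more members than any other comparison. In Foxp3+ CD24hi cells 15 of the 91 members fell (16.5%, against 9.27% of all genes) and 0 rose (6.77% of all genes; 1 member at an unadjusted p under 0.05). The members' median difference was -0.32 log2 units, against 0.02 for all genes, and 83 of 91 differences were below 0. Of the 15, 9 were in complex I, 1 in complex II, 2 in complex III, 2 in complex IV and 1 in complex V.

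Complex I assembly factors moved most, with 5 of 8 lower. Ndufaf6, needed for an early membrane part of complex I, stood at 7.28, 7.46 and 7.48 log2 units on the 3 precursor arrays and at 5.91, 6.03 and 6.62 in Foxp3+ CD24hi cells. The arrays did not overlap, and the difference was -1.22 ± 0.16 (SE, adjusted p = 3.52e-06), a 2.33-fold lower level. Ndufaf4, which works with Ndufaf3 in an early assembly step, was at 9.84, 10.09 and 9.92 in precursors and at 9.04, 8.76 and 9.10 in Foxp3+ CD24hi cells, a difference of -0.98 ± 0.13 (adjusted p = 4.08e-06). Ndufaf2, a relative of the subunit Ndufa12 that binds late intermediates, fell by 0.91 ± 0.16 (adjusted p = 0.000267). Ndufaf5, which modifies the subunit Ndufs7, and its partner Ndufaf8 each fell by 0.53. The Ndufaf6, Ndufaf4 and Ndufaf2 calls held under 11 of 11 alternatives.

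Among subunits of complex I, 4 of 28 accessory genes fell, and the 6 core genes had a median difference of -0.22. Ndufa12, the relative of Ndufaf2, was at 11.28, 11.77 and 11.79 log2 units in precursors and at 10.69, 10.68 and 11.12 in Foxp3+ CD24hi cells, without overlap, and fell by 0.78 ± 0.17 (adjusted p = 0.00225). Ndufa5 fell by 0.72 ± 0.15, Ndufa10 by 0.52 ± 0.12, and Ndufab1, the mitochondrial acyl carrier protein that is also a complex I subunit, by 0.53 ± 0.17. The median difference of the core and accessory subunits was -0.29.

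In complex II, Sdhb, the iron-sulfur subunit, was at 10.82, 10.87 and 10.93 in precursors and at 10.38, 10.35 and 10.50 in Foxp3+ CD24hi cells. The arrays did not overlap, and Sdhb fell by 0.46 ± 0.09 (adjusted p = 0.00108). Sdhc and Sdhd, the membrane anchors, had differences of -0.47 ± 0.21 and -0.56 ± 0.21 with adjusted p of 0.154 and 0.0819. Sdha, the flavoprotein, had a difference of -0.02 ± 0.13. In complex III the core protein gene Uqcrc1 fell by 0.33 ± 0.11, and Uqcrq fell by 0.76 ± 0.22 (adjusted p = 0.0161), although the 3 other Uqcrq probe sets, which were dim, differed by 0.04, -0.09 and -0.10. Cytochrome c (Cycs) had a difference of -0.36 ± 0.17 that did not pass (adjusted p = 0.178).

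In complex IV, Cox6a1, the broadly expressed form of its subunit, was at 13.39, 13.41 and 13.46 in precursors and at 13.03, 12.98 and 13.13 in Foxp3+ CD24hi cells, and fell by 0.37 ± 0.08 (adjusted p = 0.00239). Cox7a1, a form known from heart and skeletal muscle, was near the floor, at 4.54, 4.56 and 5.95 in precursors and at 4.05, 3.36 and 3.83 in Foxp3+ CD24hi cells. It fell by 1.27 ± 0.28 (adjusted p = 0.0025), and the precursor array at 5.95 stood far from the other 2. In complex V, Atp5pb, a gene of the stalk that holds the catalytic head still, fell by 0.47 ± 0.11 (adjusted p = 0.00349). The 3 c-ring genes Atp5g1, Atp5g2 and Atp5g3 encode the same mature protein with different import sequences, and did not pass without a block. Their median difference was -0.40, with -0.81 ± 0.31 for Atp5g1. With the replicate block Atp5g1 and Atp5g3 passed as lower (adjusted p of 2.16e-05 and 0.000756).

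Same-numbered arrays deviated together in this comparison (correlations across genes from 0.17 to 0.52). With the replicate block 51 members were lower and 2 higher (all genes 14.3% and 10.2%): 25 of complex I, 3 of II, 6 of III, Cycs, 6 of IV and 10 of V were lower. The 2 higher members were Cox7a2l, a factor of supercomplexes of the chain, at 0.62 ± 0.10 (adjusted p = 5.75e-05 with the block, 0.0818 without), and Ndufa6, which the naming rule did not take and is named here after its values were seen. Without a block, the count was 36 without precursor replicate 1 and 32 without Foxp3+ CD24hi replicate 3, 10 at its lowest without precursor replicate 3, and 9 in a fit to these 2 groups alone. The calls of Ndufab1, Ndufaf8, Uqcrc1 and Uqcrq were each lost without replicate 1 or 2 of Foxp3+ CD24hi or replicate 2 or 3 of precursors (highest adjusted p from 0.166 to 0.22 over all alternatives), and that of Ndufaf5 without precursor replicate 3 (highest 0.0871). The fit to these 2 groups alone also ended the calls of Cox6a1 and Atp5pb (highest adjusted p of 0.0733 and 0.0535). Double-positive thymocyte markers moved the same way, with 6 of 7 lower in Foxp3+ CD24hi cells, as did 4 of 22 cell cycle genes, 3 of 5 NK and innate-like markers, 2 of 6 antigen-presenting cell markers (H2-Ab1 by -0.90 ± 0.24) and 1 of 2 CD8 T cell markers, and their part in the result was not tested.

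Precursors were also compared with Foxp3- CD24hi cells, the conventional cells of high CD24 in the design. In precursors 5 members rose (5.49%, all genes 5.08%) and 0 fell (all genes 4.03%), so the share called was close to that of all genes. The median difference was 0.14 against -0.01 for all genes, and 78 of 91 differences were above 0, with all 17 genes of complex V among them. Leaving out each array in turn moved this median between 0.06 and 0.29. Ndufaf7, an assembly factor of complex I, was at 7.33, 7.16 and 7.48 log2 units in precursors and at 6.95, 6.83 and 6.60 in Foxp3- CD24hi cells. These arrays did not overlap, and it rose by 0.53 ± 0.11 (adjusted p = 0.00232). Ndufa12 rose by 0.56 ± 0.17 and its relative Ndufaf2 by 0.54 ± 0.16, Cox7a1 by 1.17 ± 0.28, and Atp5d, the delta subunit of the ATP synthase head, by 0.33 ± 0.10. Cycs had a difference of 0.36 ± 0.17 (adjusted p = 0.243).

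With the block, which same-numbered arrays bore out (correlations from 0.29 to 0.49), 23 members were higher and 0 lower (all genes 7.83% and 6.85%), among them 14 of complex I, Cycs (adjusted p = 0.0143) and 3 of complex V. In the fit to these 2 groups alone 0 passed. The unblocked count fell to 1 without precursor replicate 3, to 2 without Foxp3- CD24hi replicate 1 and to 3 without replicate 2 of either group, and was 5 without Foxp3- CD24hi replicate 3, the array with liver genes. The Ndufaf7 call held without each array (highest adjusted p over alternatives 0.063, in the fit to these groups alone), and that of Cox7a1 was lost without precursor replicate 3 (0.0983). The calls of Ndufa12, Ndufaf2 and Atp5d were each lost without Foxp3- CD24hi replicate 1 or precursor replicate 3, that of Ndufa12 also without replicate 2 of either group, that of Ndufaf2 without precursor replicate 1 or Foxp3- CD24hi replicate 2, and that of Atp5d without precursor replicate 2 (highest adjusted p of 0.255, 0.228 and 0.205). At an unadjusted p under 0.05, 13 were higher and 0 lower. Here 5 of 7 double-positive markers and 4 of 5 NK and innate-like markers were also higher in precursors, and their part was not tested.

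**Figure D3:**
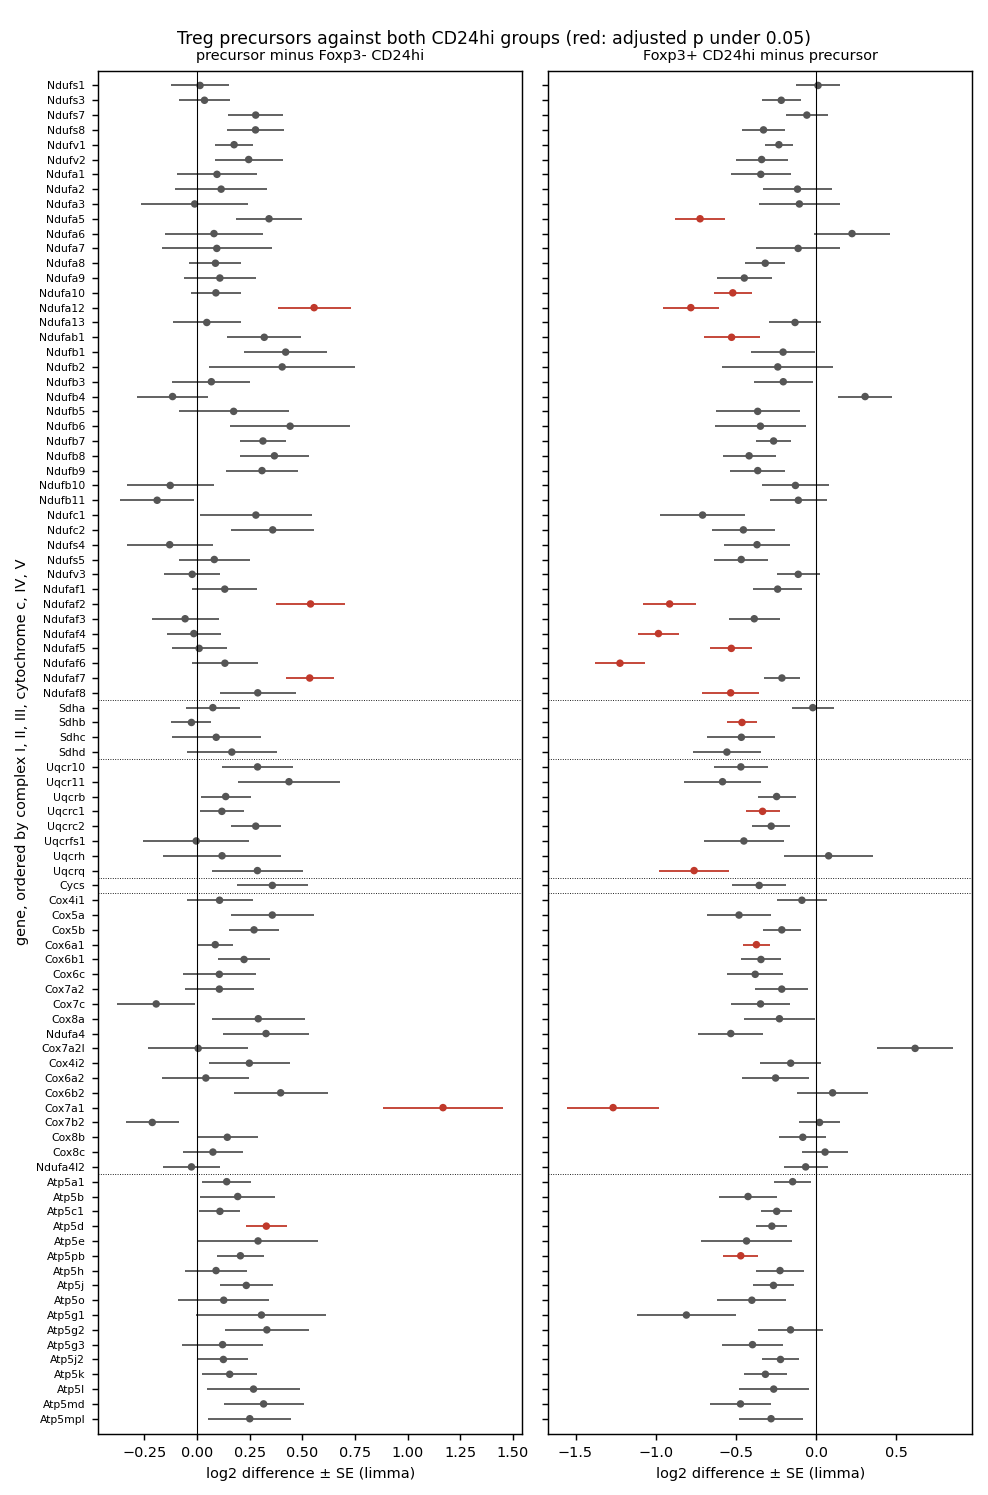
Log2 difference ± SE (limma, 3 arrays per group) of each of the 91 members for precursors minus Foxp3- CD24hi cells (left) and Foxp3+ CD24hi cells minus precursors (right), with members past the threshold in red. Most points lie right of 0 on the left (78 of 91) and left of 0 on the right (83 of 91); both panels use the same precursor arrays.

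Foxp3+ and Foxp3- cells were compared at each CD24 level and in lymph node. Ndufaf4 was lower in the Foxp3+ cells in 4 of 4 of these comparisons, and so was Ndufaf6. At CD24hi 7 members fell (7.69%, all genes 9.65%) and 0 rose by limma (all genes 8.38%; 3 members at an unadjusted p under 0.05). At CD24int 3 fell (3.3%, all genes 6.62%) and 3 rose (3.3%, all genes 8.66%). At CD24lo 5 fell (5.49%, all genes 11.2%) and 1 rose (1.1%, all genes 9.85%). In lymph node 2 fell (2.2%, all genes 4.35%) and 4 rose (4.4%, all genes 8.01%). Without a block the members' shares were below those of all genes in each case, a description with no test. At CD24hi the members' median difference was nonetheless -0.13 against 0.00 for all genes, with 23 of 91 differences above 0, and with the replicate block 23 members were lower, a larger share than the 14.2% of all genes. The CD24hi comparison shares its Foxp3+ arrays with the comparison against precursors.

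Ndufaf4 was between 9.42 and 10.12 on all 15 arrays of precursors and conventional cells and between 8.76 and 9.20 on all 12 arrays of Foxp3+ cells, without overlap. Its difference was -0.998 ± 0.13 at CD24hi (adjusted p = 1.73e-06), -0.66 ± 0.13 at CD24int, -0.94 ± 0.13 at CD24lo and -0.70 ± 0.13 in lymph node (adjusted p = 0.000242). A second Ndufaf4 probe set gave -1.06 at CD24hi and -0.88 in lymph node. Ndufaf6 was between 6.92 and 7.48 on the arrays without Foxp3 and between 5.91 and 6.71 on those with it, again without overlap. It was lower by 2.13-fold at CD24hi (-1.09 ± 0.16, adjusted p = 9.91e-06), with differences of -0.69 ± 0.16 at CD24int, -0.93 ± 0.16 at CD24lo and -0.48 ± 0.16 in lymph node. The last of these passed narrowly (adjusted p = 0.0453, highest over alternatives 0.193) and was lost when any of the 6 arrays was left out. The Ndufaf4 calls held under all alternatives in these 4 comparisons.

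The other 5 members were lower in Foxp3+ CD24hi than in Foxp3- CD24hi cells. Sdhb stood at 10.38, 10.35 and 10.50 against 10.89, 10.89 and 10.92, and fell by 0.49 ± 0.09 (adjusted p = 0.000454). Ndufaf5 fell by 0.52 ± 0.13 (adjusted p = 0.00562) and Ndufa10 by 0.43 ± 0.12. Cox6a1 fell by 0.29 ± 0.08 and Cox7c by 0.54 ± 0.18, the last on a probe set with a mean of 7.79 log2 units. With the mean of all probe sets Cox6a1 did not pass here. Of the 6 members among these 7 that have a promoter window, 4 (Ndufaf4, Ndufaf5, Sdhb and Cox6a1) hold the NRF1 core, 2 the ETS core and 0 the YY1 core. Of the 13 with a window among members lower against precursors, 5 hold the NRF1 core, 3 the ETS core and 1 the YY1 core. Among all 75 members with a window the shares were 16%, 25.3% and 8%. These counts have no test. With that block 4 members were higher at CD24hi (all genes 11.3%): Cox7a2l (0.62 ± 0.10, adjusted p = 3.96e-05, against 0.0725 without the block), Cox6b2, Ndufaf7 and Ndufa6, the last named after its value was seen. Same-numbered arrays correlated from 0.11 to 0.34 here. The unblocked count was 4 without Foxp3+ CD24hi replicate 2, 11 without replicate 3 of that group, and 5 without Foxp3- CD24hi replicate 2 or without replicate 3, the array with liver genes. The Cox7c call was lost without any of the 6 arrays (highest adjusted p 0.122), that of Cox6a1 without replicate 1 or 2 of Foxp3+ CD24hi or 2 or 3 of Foxp3- CD24hi (0.143), and that of Ndufa10 without Foxp3+ CD24hi replicate 2 (0.0885). Of the double-positive markers 3 of 7 and of the CD8 T cell markers 1 of 2 were lower in Foxp3+ CD24hi cells, and their part was not tested.

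At CD24int and CD24lo the largest differences besides those of Ndufaf4 and Ndufaf6 were in isoform genes of complex IV. Cox6b2, a form known from testis, was near the floor but apart: at 5.98, 5.96 and 5.96 in Foxp3+ CD24int cells and at 4.76, 5.22 and 5.04 in Foxp3- CD24int cells. It rose by 0.96 ± 0.22 at CD24int, 1.02 ± 0.22 at CD24lo and 1.08 ± 0.22 in lymph node (adjusted p of 0.0031, 0.00112 and 0.00101). In lymph node the arrays were at 5.33, 4.74 and 5.54 in Tregs and at 4.56, 3.47 and 4.33 in naive cells. Its broadly expressed counterpart Cox6b1 was called in none of the 16 comparisons without a block, with group means from 11.86 to 12.25. It was lower in Foxp3+ CD24hi cells than in precursors with the block (-0.34, adjusted p = 0.0114), and passed there without dim genes too.

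Cox6a2, the muscle and heart form, went the other way. It was at 6.01, 5.73 and 5.81 in Foxp3+ CD24int and at 6.83, 7.06 and 6.22 in Foxp3- CD24int cells, and at 5.97, 5.91 and 5.66 against 6.57, 6.95 and 7.11 at CD24lo. Differences were -0.85 ± 0.21 at CD24int (adjusted p = 0.00454) and -1.03 ± 0.21 at CD24lo (adjusted p = 0.000477). Foxp3- CD24lo was also the group with the NK, NKT and innate-like markers, 5 of 5 of which were lower in Foxp3+ CD24lo cells, as were 4 of 5 in Foxp3+ CD24int cells. Antigen-presenting cell markers were lower in the Foxp3+ group for 3 of 6 at CD24int and 3 of 6 at CD24lo (H2-Aa by -1.29 ± 0.32 and -1.91 ± 0.32), while Cd79b of the B cell markers and Cd8b1 of the CD8 markers were higher at CD24lo. The part of these lists in the Cox6a2 and Cox6b2 results was not tested. Of the 22 cell cycle genes 16 were lower in the Foxp3+ group at CD24int and 10 at CD24lo. At CD24lo Ndufa10 (-0.35 ± 0.12) and Cox7c (-0.58 ± 0.18) also passed, and both calls were lost without replicate 1 of Foxp3- or replicate 3 of either class (highest adjusted p of 0.146 and 0.162), that of Cox7c also without Foxp3+ replicate 1 and that of Ndufa10 without Foxp3+ replicate 2. Cox7a2l had differences of 0.62, 0.63 and 0.57 at the 3 CD24 levels, each ± 0.24 and not past the threshold without a block. In lymph node the difference was -0.00. With the block Cox7a2l passed at CD24hi, CD24int and CD24lo (adjusted p of 3.96e-05, 3.45e-05 and 8.91e-05). At CD24int and CD24lo, however, not every same-numbered pair of arrays correlated over 0.1 (lowest r of -0.05 and 0.099).

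**Figure D4:**
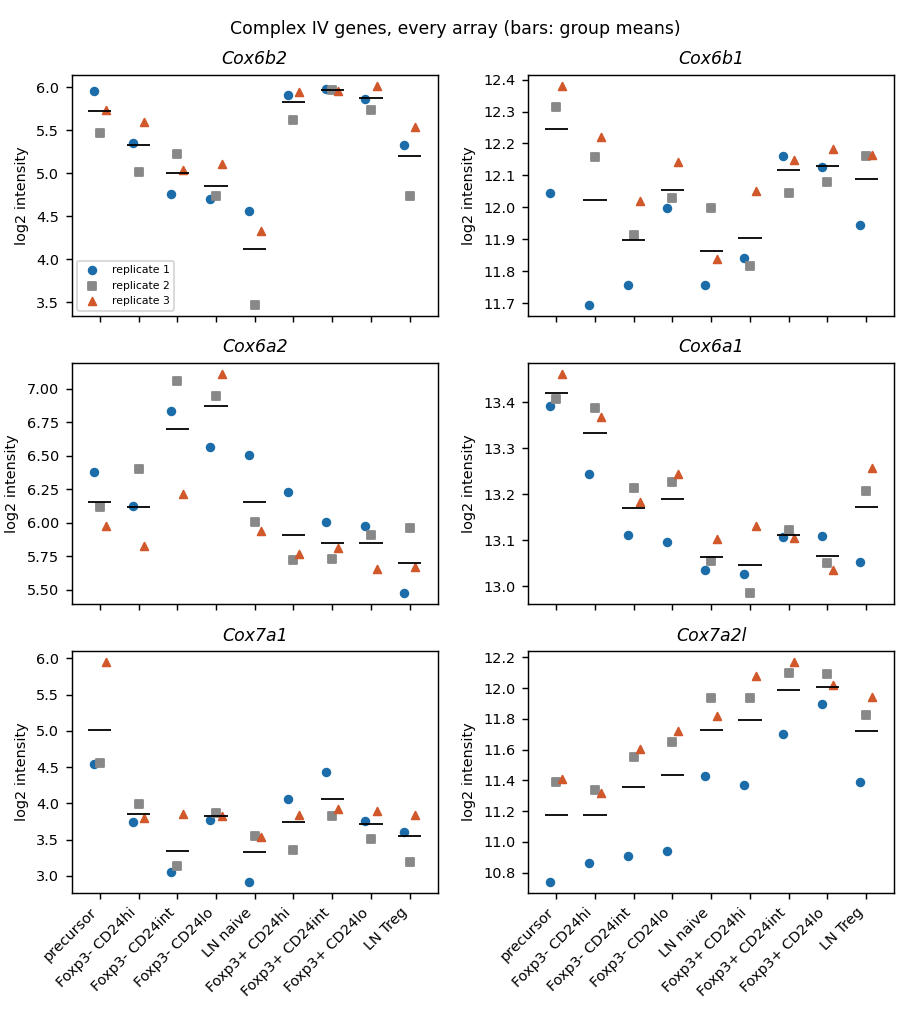
Log2 intensity on every array (points by replicate number, bars for group means of 3 arrays) of 3 pairs of complex IV genes in the 9 groups. Cox6b2 is highest in the 3 thymic Foxp3+ groups (means 5.82 to 5.97) and lowest in LN naive cells (4.12), Cox6a2 is highest in Foxp3- CD24int and CD24lo cells, and replicate 1 is the lowest Cox7a2l array of each group.

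Other isoform genes gave no call without a block: Cox4i2, Cox7b2, Cox8b, Cox8c and Ndufa4l2 had group means of 5.22 to 5.57, 2.71 to 3.07, 4.89 to 5.29, 7.04 to 7.35 and 5.65 to 6.06 log2 units. With the block Cox7b2, near the floor, was higher in Foxp3+ than in Foxp3- CD24lo cells (0.32, adjusted p = 0.0483). In that comparison not every same-numbered pair of arrays correlated over 0.1. Of the broadly expressed counterparts, Cox4i1, Cox8a and Ndufa4 also passed in none of the 16 comparisons without a block. Cox7a2, the counterpart of Cox7a1, passed in none either. Cox7b, the counterpart of Cox7b2, was not among the members. With the block, where same-numbered arrays deviated together, Cox8a and Ndufa4 were higher in Foxp3- CD24lo than CD24int cells (0.46 and 0.36, adjusted p of 0.000598 and 0.0251). Cox8a was also higher in precursors than in Foxp3- CD24hi cells (0.29, adjusted p = 0.0299). Ndufa4 was lower in Foxp3+ CD24hi cells than in precursors (-0.53, adjusted p = 0.000947). Where not every same-numbered pair correlated over 0.1, the block gave further calls, among them these. Cox8a, Ndufa4 and Cox7a2 were lower in Foxp3+ than in Foxp3- CD24lo cells (-0.56, -0.54 and -0.32, adjusted p of 2.92e-05, 0.00064 and 0.0437). They were also lower in LN naive than in Foxp3- CD24lo cells (-0.43, -0.53 and -0.44, adjusted p of 0.00105, 0.00114 and 0.00827). Cox4i1 was higher in Foxp3+ than in Foxp3- CD24int cells (0.24, adjusted p = 0.0354).

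A few subunits were higher in Foxp3+ cells. Ndufb7, an accessory subunit, rose by 0.40 ± 0.11 at CD24int (adjusted p = 0.0119) and by 0.46 ± 0.11 in lymph node (adjusted p = 0.00439), where arrays were at 10.99, 11.11 and 11.22 in Tregs and at 10.58, 10.70 and 10.67 in naive cells. Ndufs8, a core iron-sulfur subunit, rose in lymph node by 0.43 ± 0.14, and Atp5d at CD24int by 0.30 ± 0.10. Ndufaf7 rose in LN Tregs by 0.48 ± 0.11 (adjusted p = 0.00413), the opposite direction to Ndufaf4 and Ndufaf6 of the same class. The Ndufs8 call was lost without any array but LN Treg replicate 1 (highest adjusted p 0.202), that of Atp5d without replicate 1 or 3 of either CD24int group (0.227) and that of Ndufb7 at CD24int without replicate 1 of either (0.107). In lymph node the block gave 9 higher members and 3 lower, Ndufaf4, Ndufaf6 and Ndufa10 (all genes 10.9% and 7.22%, correlations from 0.25 to 0.44), and 8 of 22 cell cycle genes were higher and 4 of 5 NK and innate-like markers lower in Tregs.

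**Figure D5:**
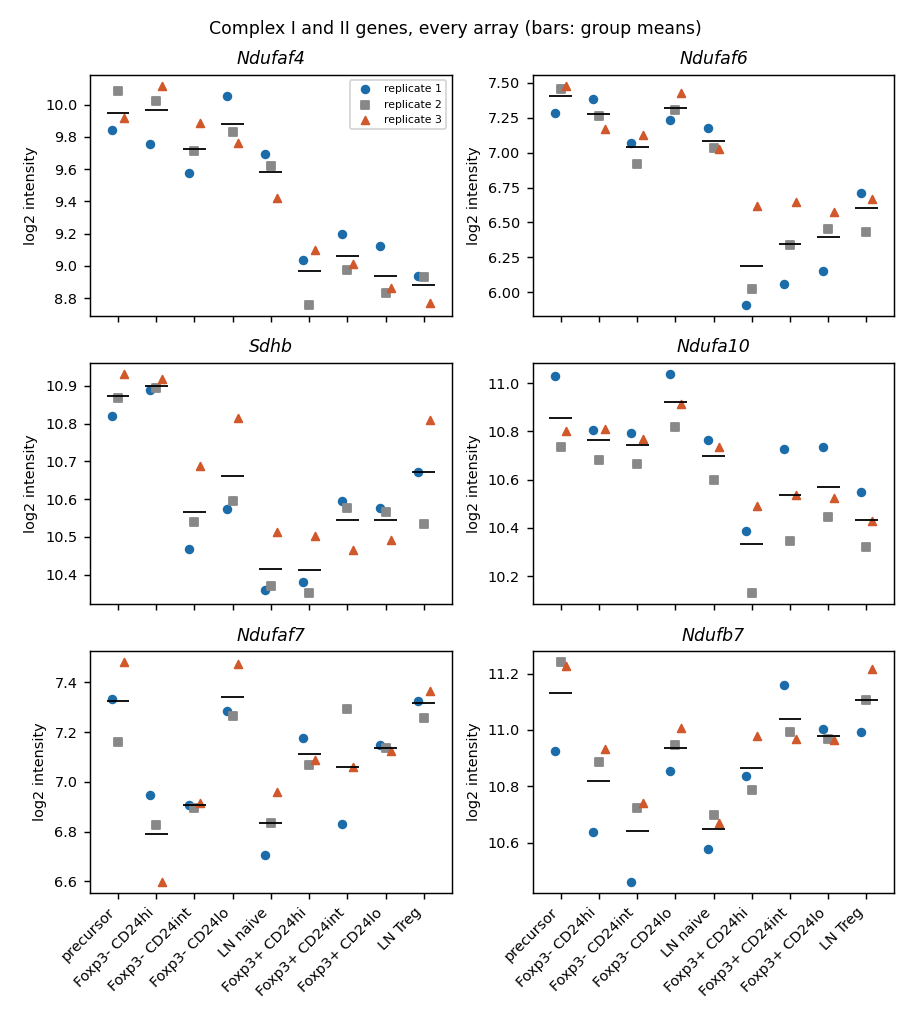
Log2 intensity on every array (points by replicate number, bars for group means of 3 arrays) of 5 complex I genes and Sdhb in the 9 groups. Ndufaf4 lies between 8.76 and 9.20 in the 4 Foxp3+ groups and at 9.42 or above elsewhere, and Sdhb is highest in precursors (mean 10.87) and Foxp3- CD24hi cells (10.90).

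Maturation within a class gave few calls without a block. From CD24hi to CD24int among Foxp3- cells Sdhb fell by 0.34 ± 0.09 (adjusted p = 0.0372), the only call: 1.1% of members fell against 2.75% of all genes, and 0 rose by limma against 2.26% (1 at an unadjusted p under 0.05). That call was lost (highest adjusted p 0.205) on leaving out any of the 3 Foxp3- CD24hi arrays or replicate 1 or 2 of Foxp3- CD24int. In this step 3 of 7 double-positive markers were lower and 3 of 5 NK and innate-like markers higher. From CD24int to CD24lo among Foxp3- cells Ndufaf7 rose by 0.44 ± 0.11 (adjusted p = 0.0104), from 6.91, 6.89 and 6.92 to 7.29, 7.27 and 7.47, as 1.1% of members against 7.86% of all genes, and 0 fell by limma (all genes 4.13%; 1 member unadjusted). It did not pass without Foxp3- CD24lo replicate 3 (adjusted p = 0.0731). In this step 81 of 91 differences were above 0, all 17 of complex V among them, with a median of 0.15 against 0.01 for all genes (0.04 to 0.24 on leaving out each array). With the block 13 members were higher in this step and 0 lower (all genes 11.6% and 7.15%, correlations from 0.39 to 0.54), and 5 of 5 NK and innate-like markers were higher and 1 of 2 CD8 T cell markers lower.

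Among Foxp3+ cells 0 members passed from CD24hi to CD24int (all genes 0.242% higher and 0.044% lower by limma), and at an unadjusted p under 0.05 3 were higher and 0 lower. The members' median difference was 0.16, with 78 of 91 above 0. The block gave 1 call, Ndufaf3 (0.45, adjusted p = 0.0259), named here after its value was seen. Of all genes, the block called 0.912% higher and 0.242% lower. From CD24int to CD24lo among Foxp3+ cells 0 passed (all genes 0.011% higher and 0.0055% lower), 0 were below an unadjusted p of 0.05 and the median was -0.01. By the test of the difference of steps between classes, limma called 0 members in the step to CD24int (all genes 1.01% higher and 0.533% lower). Unadjusted, 8 were higher and 1 lower, and the members' median was 0.23 (0.11 to 0.35 on leaving out each array). In the step to CD24lo limma called 0 (all genes 1.41% and 3.57%), with 1 higher and 2 lower unadjusted. The members' median there was -0.17 (-0.27 to -0.05).

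Lymph node cells were compared with the CD24lo thymocytes of their class. LN Tregs differed from Foxp3+ CD24lo cells in 0 members by limma (all genes 3.15% higher and 2.78% lower), with 0 higher and 1 lower at an unadjusted p under 0.05 and a median of -0.03. The block gave 1 higher and 1 lower, Sdhd and Cox6b2 (0.33 and -0.67), against 5.7% and 4.86% of all genes. Without LN Treg replicate 3, 1 member passed. In LN Tregs 3 of 5 B cell markers (Ms4a1 by 2.93 ± 0.29) and 3 of 6 antigen-presenting cell markers (H2-Aa by 2.26 ± 0.32) were higher, and their part was not tested. In LN naive cells 4 members fell against Foxp3- CD24lo cells (4.4%, all genes 8.58%) and 0 rose by limma (all genes 6.03%; 1 member unadjusted), with a median of -0.21. These were Ndufaf7 (-0.51 ± 0.11, adjusted p = 0.00239), Cox6b2 (-0.73 ± 0.22), Cox6a2 (-0.72 ± 0.21) and Atp5j, a peripheral stalk gene (-0.42 ± 0.13).

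The count for naive cells was 1 without Foxp3- CD24lo replicate 3 and 2 without LN naive replicate 2. Without the first of these arrays Cox6a2, Cox6b2 and Atp5j were lost, without the second Cox6a2 and Cox6b2, without LN naive replicate 1 Atp5j, and without LN naive replicate 3 or Foxp3- CD24lo replicate 2 Cox6a2, with highest adjusted p of 0.1 for Cox6a2, 0.246 for Cox6b2 and 0.112 for Atp5j. Cell cycle genes were lower in LN naive cells as well, 17 of 22, and so were 5 of 5 NK and innate-like markers. B cell markers were higher there for 3 of 5 (Ms4a1 by 2.88 ± 0.29), as was 1 of 2 CD8 T cell markers, and the part of these lists was not tested. Against Foxp3- CD24int cells, whose NK and innate-like markers stood at 5.08 to 6.62, Cox6b2 was the only member lower in LN naive cells (-0.89 ± 0.22, adjusted p = 0.0105; 1.1%, all genes 4.18%) and 0 were higher by limma (all genes 4.38%; 1 member unadjusted). That call was lost without LN naive replicate 2 or Foxp3- CD24int replicate 2 (highest adjusted p 0.119), and 22 of 22 cell cycle genes were lower and 3 of 5 B cell markers higher there.

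Without a block, Ndufaf7 was the member called for a change from CD24lo thymocyte to lymph node that differed between Tregs and conventional cells (1.1% of members, all genes 7.05% higher and 3.92% lower; 0 members lower by limma, 1 unadjusted). Cox8a passed as well with the mean of all probe sets and Sdhb without dim genes, both named here after their values were seen. Ndufaf7 was at 7.15, 7.14 and 7.12 in Foxp3+ CD24lo cells and at 7.33, 7.26 and 7.37 in LN Tregs. In conventional cells it was at 7.29, 7.27 and 7.47 in CD24lo thymocytes and at 6.70, 6.83 and 6.96 in lymph node. Naive cells were lower than Foxp3- CD24lo thymocytes (a call given above). LN Tregs against Foxp3+ CD24lo cells had a difference of 0.18 ± 0.11 that did not pass (adjusted p = 0.541). The difference of differences was 0.69 ± 0.16 (adjusted p = 0.00483). Of the markers and other lists, 3 of 5 NK and innate-like markers, 2 of 6 antigen-presenting cell markers and 16 of 22 cell cycle genes were higher in this test and 1 of 2 CD8 T cell markers was lower, and their part was not tested.

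Other mitochondrial gene lists, written from general knowledge with earlier results of these data known, were set beside the members. Of 39 measured assembly factors outside the symbol rule, 12 fell and 2 rose in Foxp3+ against Foxp3- CD24hi cells (all genes 9.65% and 8.38%), and 13 fell and 1 rose in Foxp3+ CD24hi cells against precursors (all genes 9.27% and 6.77%). Cox10, which makes a precursor of the heme A of complex IV, fell by 0.66 ± 0.10 in LN Tregs against naive cells. It fell by 1.08 ± 0.10 (adjusted p = 1.22e-08) and 0.68 ± 0.10 in the CD24hi and precursor comparisons above. Uqcc1, a complex III assembly factor, fell by 0.66 ± 0.12 in the first of them, while Higd2a, the brightest of the list that did not pass, had a difference of 0.04 ± 0.22. Sdhaf1, a factor that helps fit iron-sulfur clusters into Sdhb, rose by 1.34 ± 0.19 in Foxp3+ against Foxp3- CD24lo cells and by 0.78 ± 0.19 in LN Tregs.

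Mitochondrial ribosome genes encode the ribosome that makes the mitochondrially encoded subunits. Of 76 measured, 36 fell and 1 rose in Foxp3+ CD24hi cells against precursors (all genes 9.27% and 6.77%). In Foxp3+ against Foxp3- cells 20 fell and 1 rose at CD24hi (all genes 9.65% and 8.38%), and 16 fell and 1 rose at CD24lo (all genes 11.2% and 9.85%). Mrpl19 fell by 0.85 ± 0.11 and Mrps2 by 0.60 ± 0.10 against precursors. Import and chaperone genes were higher in precursors than in Foxp3- CD24hi cells for 5 of 13 (all genes 5.08%) and lower in Foxp3+ CD24hi cells than in precursors for 8 of 13 (all genes 9.27%). Hspd1, the mitochondrial Hsp60 chaperonin, changed by 0.77 ± 0.12 and -0.85 ± 0.12, 2 values that share the precursor arrays.

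Among 13 measured genes of the tricarboxylic acid cycle, 5 fell and 1 rose in Foxp3+ CD24hi cells against precursors (all genes 9.27% and 6.77%). Idh2 fell by 1.07 ± 0.15, while Suclg2, a subunit of the GTP-forming succinyl-CoA ligase, rose by 0.77 ± 0.16. Of 20 regulators of mitochondrial biogenesis, 6 fell and 1 rose there, beside the same shares of all genes, with Lrpprc, which stabilises mitochondrial messenger RNA, lower by 0.72 ± 0.13. Nfe2l2, a factor of the oxidative stress response, fell by 1.15 ± 0.14 in Foxp3+ against Foxp3- CD24hi cells and by 1.46 ± 0.14 in LN Tregs. Of the genes of the chain outside the symbol rule, Cyc1 (cytochrome c1 of complex III) and Atpif1 (an inhibitor of the ATP synthase) were measured. Both were higher in precursors than in Foxp3- CD24hi cells, by 0.40 ± 0.11 and 0.75 ± 0.20. Atpif1 was higher in LN Tregs than in naive cells by 1.27 ± 0.20. It was also higher in Foxp3+ than in Foxp3- cells at CD24int and CD24lo, by 1.04 ± 0.20 and 1.02 ± 0.20, and did not pass at CD24hi. In LN naive cells Atpif1 was lower than in Foxp3- CD24lo and CD24int cells (-0.72 ± 0.20 and -0.76 ± 0.20).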

How the data were processed

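The authors deposited intensities made with RMA, per the submitters' processing notes, which were linear and positive (3.55 to 24083; array medians 30.3 to 32.0) and were transformed to log2 here. The version and settings of RMA are not given in the sources used here. Of 45101 probe sets, 34958 had a single gene symbol in the platform's annotation, 932 several and 9211 none; the last 2 kinds were not used. Each gene took its brightest single-symbol probe set over the 27 arrays. Symbols were matched to RefSeq for 18033 genes and 0 changed. Promoter windows came from RefSeq GRCm38.p6.

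Group means of all 9 groups were fitted with limma 3.58.1 (R 4.3.3), empirical Bayes (prior degrees of freedom 5.98), two-sided p-values and Benjamini-Hochberg adjustment over 18194 genes. With 3 arrays per group the precision was limited: the median SE was 0.145 log2 units for a comparison of groups and 0.205 for a difference of differences. The model was run on simulated data with independent noise for each gene and array. Those data lack the shift shared between replicates, so the run cannot show how that shift affects the calls. Numbers were taken to pair arrays where every same-numbered pair correlated over 0.1 in deviations from group means, which held in 9 of 16 comparisons, from the data alone. The exceptions were Foxp3+ against Foxp3- at CD24int (lowest r = -0.05) and CD24lo (0.099), LN naive against Foxp3- CD24lo (0.089) and CD24int cells (-0.00), and the 3 differences of differences. Alternatives were quantile normalization, the mean of all probe sets, no genes under a mean of 6, the compared groups alone, the replicate block and each array left out. Named members were the brightest and the smallest-p member of each complex, up to 5 rises and 5 falls per comparison, isoform pairs, c-ring and complex II genes, and up to 3 passing genes and the brightest failing gene of each list. No called member had another probe set passing in the opposite direction. Members and lists were chosen with earlier results of these data known.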

Additional observations from a re-analysis of the deposited data

Results flagged for a closer look

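The change of Ndufaf7 from CD24lo thymocytes to lymph node differed between Tregs and conventional cells by 0.69 log2 units (limma test of the difference itself, adjusted p = 0.00483, and 0.00259 to 0.0193 over 17 alternatives). Ndufaf7 was lower in LN naive than in Foxp3- CD24lo cells (-0.51, adjusted p = 0.00239, lower in 3 of 3 arrays), while its difference of 0.18 between LN Tregs and Foxp3+ CD24lo cells did not pass (adjusted p = 0.541). Foxp3- CD24lo arrays also carried the NK, NKT and innate-like markers, and 16 of 22 cell cycle genes, 3 of 5 NK and innate-like markers and 2 of 6 antigen-presenting cell markers (H2-Aa 1.93, H2-Ab1 1.51) differed in the same direction as Ndufaf7 in this test, and Cd8b1 in the opposite one (-1.56). Their part was not tested.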

How the results depend on the processing

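Of 53 results for named members, tried under 582 alternative values, 475 kept direction and call, 107 kept direction and lost the call, and 0 reversed; 26 were called under every alternative in which they were tested. With the replicate block, the members past the threshold numbered 27 for Foxp3+ against Foxp3- at CD24hi, 13 at CD24int (10 higher, 3 lower; all genes 12% and 9.59%), 19 at CD24lo (5 and 14; 12.7% and 14.9%), 12 for LN Treg against LN naive, 13 for Foxp3- CD24lo against CD24int, 1 for Foxp3+ CD24int against CD24hi, 23 for precursors against Foxp3- CD24hi, 53 for Foxp3+ CD24hi against precursors, 2 for LN Treg against Foxp3+ CD24lo, 30 for LN naive against Foxp3- CD24lo (1 and 29; 8.94% and 12.4%), 5 against CD24int (3 and 2; 7.74% and 6.77%), and 6, 1 and 11 for the differences of the first step (6 and 0; 3.45% and 2.27%), the second step (0 and 1, Cox8a; 2.83% and 5.6%) and the lymph node change (10 and 1; 10.3% and 6.59%). The block kept the Sdhb call for Foxp3- CD24int against CD24hi and gave 0 calls for Foxp3+ CD24lo against CD24int. In some of these comparisons not every same-numbered pair of arrays correlated over 0.1, so the block counts lack that support. They are Foxp3+ against Foxp3- at CD24int and CD24lo, LN naive against both Foxp3- groups, and the 3 differences of differences. With the mean of all probe sets the count was 2 for Foxp3- CD24int against CD24hi, for LN naive against Foxp3- CD24int and for the lymph node difference. That setting also ended the calls of Cox6a1 at CD24hi, Cox7c at CD24lo and Ndufs8 in lymph node. Ndufa12 in precursors against Foxp3- CD24hi, and Ndufaf8 and Uqcrq in Foxp3+ CD24hi against precursors, were lost with it too. Without dim genes it was 2 for Foxp3- CD24lo against CD24int, 24 for Foxp3+ CD24hi against precursors, 7 and 0 for LN naive against Foxp3- CD24lo and CD24int, 1 for the first step and 2 for the lymph node difference. In the compared groups alone it was 0 for Foxp3- CD24int against CD24hi, 0 for precursors and 9 for Foxp3+ CD24hi against precursors. The causes were not tested. Leaving out each array gave 4 to 11 at CD24hi, 4 to 7 at CD24int, 4 to 6 at CD24lo, 4 to 5 for LN Treg against LN naive, 0 to 2 for Foxp3- CD24int against CD24hi, 0 to 1 for Foxp3- CD24lo against CD24int, 1 to 5 for precursors, 10 to 36 for Foxp3+ CD24hi against precursors, 0 to 1 for LN Treg against Foxp3+ CD24lo, 1 to 6 and 0 to 2 for LN naive against Foxp3- CD24lo and CD24int, 0 for both steps and for both Foxp3+ maturation comparisons, and 1 to 2 for the lymph node difference, where 2 came without LN Treg replicate 2. The members' median difference changed sign on leaving out an array at CD24int (-0.07 to 0.16), CD24lo (-0.19 to 0.02), in LN Treg against LN naive (-0.06 to 0.14), Foxp3- CD24int against CD24hi (-0.19 to 0.05), Foxp3+ CD24lo against CD24int (-0.08 to 0.03), LN Treg against Foxp3+ CD24lo (-0.10 to 0.05) and LN naive against Foxp3- CD24int (-0.15 to 0.04). It kept its sign in the others, at -0.26 to -0.04 for CD24hi, 0.06 to 0.29 for precursors, -0.43 to -0.23 for Foxp3+ CD24hi against precursors and -0.28 to -0.11 for LN naive against Foxp3- CD24lo. Members near the floor, such as Cox7a1, Cox6b2 and Cox6a2, have compressed differences.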
